A study of Homo sapiens with 18 samples.

Results

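Untreated H460 cells were set against untreated H2023 cells, with 3 libraries of each, which are 6 of the 18 libraries of the series. Both are established human lung cancer cell lines. H460 is labelled a large cell carcinoma and H2023 a squamous cell carcinoma, and the series describes both as NRF2-activated. The cells of all 6 libraries had been kept for 24 h with DMSO, the solvent of CCS1477, and had received none of that compound, which binds the bromodomain of the coactivators p300 and CBP. Each group is a single cell line, so the line, its labelled histology and the separate processing of its table cannot be told apart. Whether the 3 libraries of a line stem from different cultures is not stated, and the p-values then reflect the scatter among these libraries alone, which could be technical.

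Total RNA had been made into directional libraries and read in pairs of 150 bases. The H460 libraries held 26652288 to 28263034 reads and the H2023 libraries 15386556 to 18261160 reads. Levels are counts per 1000000 recovered reads of a library (CPM). Differences are H460 minus H2023 on the scale of log2(scaled reads + 4), with the SE of the fit. CPM are given for each of the 3 libraries in turn or as mean ± SD (n = 3 each). The differences are smaller than the true ones for genes with few reads. Of 15468 genes with a row in both tables, 13665 reached 1 CPM in 3 or more libraries and were tested. A gene was called when its adjusted p was under 0.05 and its difference was at least 2-fold, that is 1 on this log2 scale. CPM divide by library totals, while the differences use a joint scaling of the libraries. A called gene can therefore differ by less than 2-fold in CPM, and one not called by more.

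The first H460 library stood apart from the other H460 libraries in a small set of genes. Among the 16424 gene rows of the H460 table, 70 had at least 2 CPM in H460 library 1 and over 4 times the higher of libraries 2 and 3. The same rule, chosen after the values were seen, found 6 and 2 genes for H460 libraries 2 and 3, and 6, 7 and 9 genes for the H2023 libraries. IGF2, a fetal growth factor, had 300.9 CPM in H460 library 1, against 0.402 and 0.885 CPM in libraries 2 and 3. H19, the imprinted RNA beside it, had 62.9, 0.329 and 0.283 CPM in the 3 H460 libraries, and DLK1, an imprinted inhibitor of NOTCH signalling, had 54.5, 0.110 and 0.142 CPM. HMGA2, a chromatin protein of fetal cells, had 28.3, 0.219 and 0.389 CPM in H460 and 14.4, 14.9 and 13.8 CPM in H2023. It was not called with all libraries in the main fit (log2 difference -2.79 ± 1.35, adjusted p = 0.0834) and was lower in H460 without library 1 (-4.74). With library 1 kept, 2 other fits called it lower. These were limma-voom (-3.21, adjusted p = 0.0220) and 1 fit over 12 libraries of both lines (-2.80, adjusted p = 0.0351). The 36 of these genes with a row in both tables summed to 582 CPM in H460 library 1, to 14.7 and 16.7 CPM in libraries 2 and 3, and to 25.1 to 34.1 CPM in the H460 libraries treated with CCS1477. Of the 27 that were tested, 13 were called with all libraries. All 13 kept their call without H460 library 1, and 11 others were then called as well. For several named genes that this library moved, differences are given below with and without it. Counts and medians of gene lists use all libraries unless stated, and some of them change without it.

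**Figure D1:**
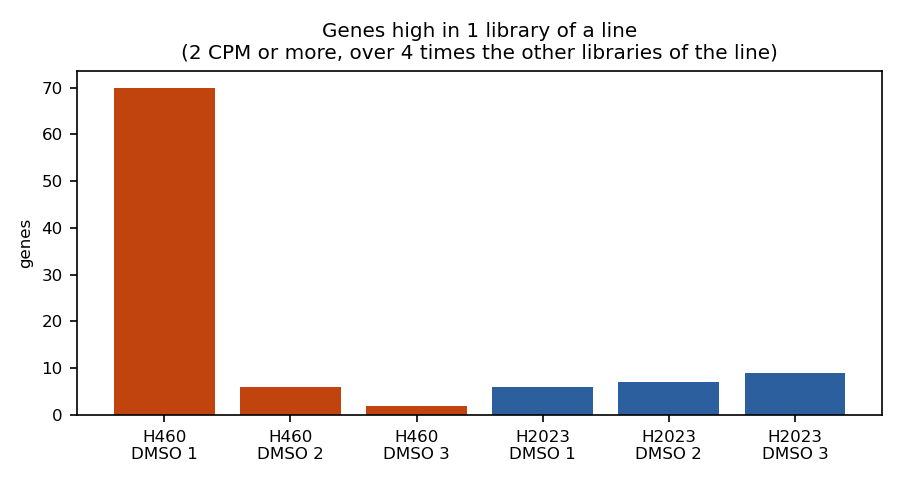
Bars count the genes with at least 2 CPM in 1 library and over 4 times the higher of the other libraries of its line, for the 3 H460 and then the 3 H2023 libraries. H460 library 1 has 70 such genes, and the other 5 libraries have between 2 and 9.

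NRF2, encoded by NFE2L2, is a transcription factor that KEAP1 and the ubiquitin ligase scaffold CUL3 mark for destruction in unstressed cells. When that control is lost, as in many lung cancers, NRF2 pairs with small MAF proteins at antioxidant response elements and raises genes for detoxification, glutathione and thioredoxin metabolism and NADPH supply. BACH1 is a repressor at the same elements. NF-kB, another stress factor with targets of its own below, binds a different element. Promoters of 5 genes whose levels are described below are shown from 250 bases before to 50 bases after the start site, from RefSeq on GRCh38.p14, each on the strand of its gene. Each was picked because it holds a match. IDH1 has 2 promoters in the source and NFKB2 has 3, of which 1 with a match is shown. Capitals mark the core of the antioxidant response element, TGACNNNGC, in GCLM and IDH1, and an NF-kB element, GGGNNTTTCC, in BIRC3, NFKB2 and CXCL1, on either strand.
GCLM (chr1:93909381-93909680, minus strand): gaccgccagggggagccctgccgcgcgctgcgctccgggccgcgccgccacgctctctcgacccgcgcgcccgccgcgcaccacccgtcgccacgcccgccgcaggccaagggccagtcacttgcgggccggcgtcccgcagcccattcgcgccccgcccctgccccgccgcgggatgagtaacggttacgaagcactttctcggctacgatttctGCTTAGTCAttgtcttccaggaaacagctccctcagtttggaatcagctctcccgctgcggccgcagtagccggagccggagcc
IDH1 (chr2:208255022-208255321, minus strand): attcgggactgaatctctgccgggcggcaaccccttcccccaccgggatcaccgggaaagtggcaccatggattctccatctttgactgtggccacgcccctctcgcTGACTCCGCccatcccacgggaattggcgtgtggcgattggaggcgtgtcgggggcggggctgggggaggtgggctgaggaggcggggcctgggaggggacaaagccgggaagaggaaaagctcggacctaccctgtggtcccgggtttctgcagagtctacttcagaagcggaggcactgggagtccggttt
BIRC3 (chr11:102317234-102317533, plus strand): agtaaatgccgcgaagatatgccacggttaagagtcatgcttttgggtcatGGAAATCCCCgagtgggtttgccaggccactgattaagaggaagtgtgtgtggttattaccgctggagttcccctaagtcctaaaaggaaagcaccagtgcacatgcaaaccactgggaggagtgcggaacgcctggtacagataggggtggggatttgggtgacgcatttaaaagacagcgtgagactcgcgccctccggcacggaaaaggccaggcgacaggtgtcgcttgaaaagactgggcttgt
NFKB2 (chr10:102394328-102394627, plus strand): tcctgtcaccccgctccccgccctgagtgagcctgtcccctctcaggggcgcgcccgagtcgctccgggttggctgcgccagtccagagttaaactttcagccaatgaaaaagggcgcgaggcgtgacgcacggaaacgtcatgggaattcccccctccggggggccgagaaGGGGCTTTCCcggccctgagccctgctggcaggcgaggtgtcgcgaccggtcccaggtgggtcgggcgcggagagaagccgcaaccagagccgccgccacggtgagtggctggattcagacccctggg
CXCL1 (chr4:73869143-73869442, plus strand): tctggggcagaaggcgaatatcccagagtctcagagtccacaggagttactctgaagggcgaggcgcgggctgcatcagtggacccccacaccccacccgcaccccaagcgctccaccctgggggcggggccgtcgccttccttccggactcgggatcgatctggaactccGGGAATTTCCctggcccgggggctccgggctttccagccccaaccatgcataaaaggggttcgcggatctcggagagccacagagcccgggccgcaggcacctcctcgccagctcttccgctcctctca
Over the 27303 genes with such a promoter, 16.1% held the antioxidant core on either strand in at least 1 promoter. Among tested members of the 3 NRF2 target lists it was found in 6 of 22, 8 of 22 and 5 of 13 genes with a promoter in the table. The NF-kB letters stood in 2.32% of all these genes and in 9 of 14 tested members of the NF-kB list. A match is a description of the letters and not of binding.

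Of the 13665 genes tested, 4008 were called, or 29.3%, with 1793 higher in H460 (13.1%) and 2215 lower (16.2%). With the p-value alone, 11079 genes (81.1%) passed, 5565 higher (40.7%) and 5514 lower (40.4%), and for 11367 (83.2%) no library of one line overlapped the other line. When libraries were scaled by their totals, the split moved to 1357 higher and 2760 lower, since that scaling set the median of all genes at -0.19 instead of 0.0036. Of the called genes named below, AGR2, ASMTL, DCAF17, IDI1, INSIG1, MYC, PER1, POLA1, RFC2, TLK1 and VIM lay under 2-fold by library totals, at 0.82 to 1.00, while GATA6 (-1.18), MAFK and PRAME (-1.07) were then called lower. Between any H460 and any H2023 library the SD of gene-wise log2 differences was 1.34 to 1.39, and between libraries of one line it was 0.296 to 0.399. The CCS1477-treated libraries of the same lines, which this comparison did not use, gave 3602 calls among 13807 genes. Of the 3853 genes called here and tested there, 2836 (73.6%) passed the same rule in the same direction, and 98.7% had the same sign.

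Most genes of the NRF2 machinery differed by less than 2-fold between the lines. NFE2L2 had 126, 119 and 128 CPM in H460 and 155, 157 and 157 CPM in H2023. KEAP1 had 89.4, 88.7 and 92.4 CPM in H460 and 117, 121 and 123 CPM in H2023. Every H460 library lay below every H2023 library for both genes in CPM, and their log2 differences of -0.13 and -0.22 were under 2-fold. CUL3 had 115 ± 2.3 CPM in H460 and 110.3 ± 5.6 CPM in H2023 on average. Of the 10 NRF2 regulators tested, 20% were called, against 29.3% of all genes, with a median of -0.11. None was called higher in H460 and 2 were called lower, or 3 under library totals. These were the repressor BACH1, with 37.3 ± 1.7 CPM in H460 and 97.1 ± 4.1 CPM in H2023 (log2 difference -1.18 ± 0.05, adjusted p = 1.74e-08), and the small MAF gene MAFF, with 1.27 ± 0.33 CPM in H460 and 5.95 ± 0.27 CPM in H2023 (log2 difference -1.92 ± 0.19, adjusted p = 1.12e-05). The remaining members differed by less than 2-fold: MAFK by -0.86 (-1.06 under library totals, where it was called lower), MAFG by 0.45, NFE2L1 by 0.12, RBX1 by -0.087 and BTRC by -0.081.

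Among NRF2 targets for drug metabolism and transport, aldo-keto reductases and aldehyde dehydrogenase 1A1 were lower in H460, while NQO1 was not called. Of 29 members tested, 2 were called higher and 9 lower (37.9% called, against 29.3% of all genes), with a median log2 difference of -0.44. NQO1, a quinone reductase and the usual marker of NRF2 activity, had 1373, 1423 and 1487 CPM in H460 and 1337, 1312 and 1329.7 CPM in H2023. The 2 lines thus lay within 2-fold of each other (log2 difference 0.30 ± 0.03, adjusted p = 2.76e-05), with no overlap of libraries. AKR1C2, which reduces steroids and aldehydes, had 231, 224 and 239 CPM in H460 and 2978, 2877 and 2927 CPM in H2023 (log2 difference -3.46 ± 0.03, adjusted p = 6.3e-12). Its neighbours AKR1C1 (122 ± 6.9 CPM in H460, 375 ± 15 CPM in H2023) and AKR1C3 (378 ± 12 CPM in H460, 938 ± 21 CPM in H2023) and the aldose reductase AKR1B1 (221 ± 8.3 CPM in H460, 823 ± 9.7 CPM in H2023) were lower too. AKR1C1 lay under 2-fold, at -0.57, when transcript rows were added to their genes. Reads of these near-identical reductases could be split between them by the counting, so single values are uncertain. ALDH1A1, which makes retinoic acid, had 60.5, 60.2 and 62.98 CPM in H460 and 1481, 1478 and 1489 CPM in H2023 (log2 difference -4.40 ± 0.03, adjusted p = 8.64e-13). All 3 H460 libraries lay far below the H2023 libraries. ALDH3A1, another aldehyde dehydrogenase, had 626 ± 13 CPM in H460 and 386 ± 9.8 CPM in H2023 and was not called (log2 difference 0.90 ± 0.03, adjusted p = 6.40e-09). CYP24A1, which inactivates vitamin D, had 0.525, 0.475 and 0.743 CPM in H460 and 475, 479.98 and 475 CPM in H2023 (log2 difference -9.12 ± 0.12, adjusted p = 3.03e-11). Also lower in H460 were the transporters ABCC3 (21.1 ± 3.8 CPM in H460, 129.7 ± 18 CPM in H2023) and ABCC4 (42.9 ± 1.9 CPM in H460, 124 ± 3.1 CPM in H2023) and the fatty acid hydroxylase CYP4F3 (3.60 ± 0.65 CPM in H460, 42.2 ± 0.90 CPM in H2023). Higher in H460 were NQO2, a paralog of NQO1, with 128 ± 2.7 CPM in H460 and 58.04 ± 2.4 CPM in H2023 (log2 difference 1.34 ± 0.04, adjusted p = 2.37e-09), and TRIM16L, with 5.32 ± 1.7 CPM in H460 and 2.38 ± 1.00 CPM in H2023 (log2 difference 1.32 ± 0.31, adjusted p = 0.00341).

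Among glutathione and thioredoxin genes, GCLC and MGST3 were lower in H460 and PRDX6 was higher. Of 31 members tested, 4 were called higher and 5 lower, a share of 29% against 29.3% of all genes, with a median of 0.071. GCLC, the catalytic subunit, had 88.2, 86.2 and 87.96 CPM in H460 and 366, 368 and 348 CPM in H2023 (log2 difference -1.84 ± 0.03, adjusted p = 6.13e-11). GCLM, the regulatory subunit, whose promoter is printed above, had 321, 307 and 320.2 CPM in H460 and 413, 434 and 409.6 CPM in H2023 (log2 difference -0.21 ± 0.03, adjusted p = 1.31e-04), a difference under 2-fold. Whether the subunits differ from each other in their line difference was not tested. Neither the cystine importer SLC7A11 (926 ± 8.3 CPM in H460, 722 ± 30.4 CPM in H2023) nor the thioredoxin reductase TXNRD1 (1355 ± 28 CPM in H460, 1467 ± 26 CPM in H2023) was called. MGST3, a microsomal glutathione transferase, was lower in H460 with 41.9 ± 1.7 CPM in H460 and 197 ± 3.8 CPM in H2023 (log2 difference -2.03 ± 0.04, adjusted p = 1.62e-10), as was GPX4, which detoxifies lipid peroxides, with 49.98 ± 3.4 CPM in H460 and 118 ± 2.7 CPM in H2023 (log2 difference -1.03 ± 0.05, adjusted p = 5.40e-08; -0.98 without H460 library 2). PRDX6, a peroxiredoxin, was higher, with 492 ± 17 CPM in H460 and 235 ± 1.8 CPM in H2023 (log2 difference 1.26 ± 0.03, adjusted p = 8.38e-10), as were the transferases GSTM3 (log2 difference 1.59 ± 0.06, adjusted p = 1.17e-08) and MGST2 (log2 difference 1.47 ± 0.10, adjusted p = 6.33e-07). So was CHAC1 (7.49 ± 0.81 CPM in H460, 3.32 ± 0.29 CPM in H2023), which breaks down glutathione. GPX2, a glutathione peroxidase and a known NRF2 target, had a row in the H2023 table only, at 168 CPM. GPX3, the secreted peroxidase, had one in the H460 table only, at 74.1 CPM. No difference is given for either.

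Genes that supply NADPH and one-carbon units were higher in H460 or not called. Of 14 tested, 4 were called higher and none lower, with a median of 0.59; the share of 28.6% was close to the 29.3% of all genes. PHGDH, the first enzyme of serine synthesis, had 137, 134 and 141 CPM in H460 and 37.5, 38.3 and 38.2 CPM in H2023 (log2 difference 2.05 ± 0.03, adjusted p = 1.02e-10). IDH1, a cytosolic source of NADPH, had 366, 375 and 388 CPM in H460 and 148, 146 and 148 CPM in H2023 (log2 difference 1.55 ± 0.03, adjusted p = 2.48e-10). The H460 libraries were all higher for both genes. MTHFD2, a mitochondrial folate enzyme, had 283 ± 5.9 CPM in H460 and 134 ± 8.4 CPM in H2023 (log2 difference 1.28 ± 0.04, adjusted p = 7.17e-09). PGD, an oxidative step of the pentose phosphate pathway, had 701 ± 5.5 CPM in H460 and 1368 ± 9.5 CPM in H2023 and was not called (log2 difference -0.77 ± 0.02, adjusted p = 4.83e-09). ME1, malic enzyme, had 294 ± 11 CPM in H460 and 378 ± 7.1 CPM in H2023 and was not called. The rest of the list was not called either, with differences of 0.65 for ME2, 0.75 for IDH2, -0.11 for TKT, 0.33 for TALDO1, 0.13 for PGLS, 0.52 for RPIA, 0.30 for RPE and 0.71 for HDLBP.

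**Figure D2:**
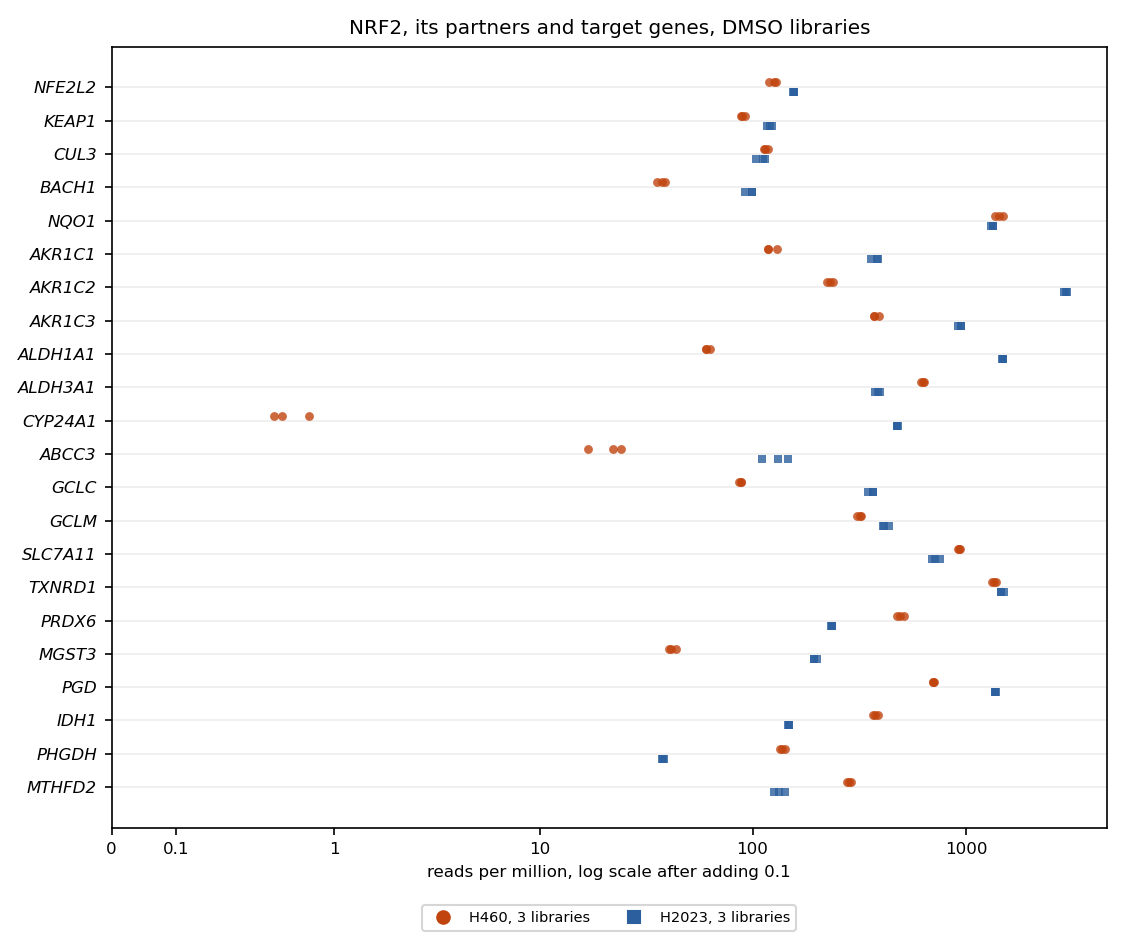
Points are the 3 H460 libraries (circles) and the 3 H2023 libraries (squares) for NRF2, its partners and targets, in CPM on a log scale after adding 0.1. NQO1, GCLM, TXNRD1 and SLC7A11 lie close together in both lines, while ALDH1A1, AKR1C2, CYP24A1 and GCLC are far lower in H460.

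The targets of CCS1477 differed by less than 2-fold between the lines. EP300, encoding p300, had 82.4, 80.1 and 80.7 CPM in H460 and 129, 133 and 127 CPM in H2023 (log2 difference -0.48 ± 0.03, adjusted p = 3.58e-07), and CREBBP, encoding CBP, 96.4, 95.7 and 88.7 CPM in H460 and 147, 147 and 146 CPM in H2023 (log2 difference -0.45 ± 0.04, adjusted p = 3.00e-06). Every H460 library lay below every H2023 library for both genes, by less than 2-fold. Among 16 acetyltransferases and acetyl readers tested, 6.25% were called, against 29.3% of all genes. None was higher and 1 was lower (3 under library totals), the nuclear receptor coactivator NCOA2, with 32.7 ± 1.9 CPM in H460 and 83.8 ± 3.7 CPM in H2023 (log2 difference -1.16 ± 0.05, adjusted p = 5.28e-08).

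The squamous markers with a value were mostly at low levels in H2023, although that line is labelled squamous, and markers without a row give no level. Of 26 squamous markers, 6 had a row in both tables and 3 were tested. TP63, the master factor of squamous epithelium, had a row in the H2023 table only, with 2.02, 2.14 and 1.36 CPM in the 3 libraries. KRT5, a basal keratin, had one in the H460 table only, with 6.08, 1.06 and 1.80 CPM, highest in library 1. ANXA8, a squamous annexin, had one in the H2023 table only, with 8.30, 9.91 and 7.02 CPM. SOX2, amplified in many squamous tumours, had a row in neither table. SERPINB5, the protease inhibitor maspin, had 98.3, 102 and 100.03 CPM in H460 and 1.23, 1.31 and 1.49 CPM in H2023 and was higher in H460 (log2 difference 6.22 ± 0.08, adjusted p = 3.92e-11). The desmosomal genes DSC3 (6.299 ± 0.34 CPM in H460, 4.41 ± 0.82 CPM in H2023) and PKP3 (29.4 ± 1.2 CPM in H460, 29.3 ± 2.1 CPM in H2023) were not called.

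Endoderm and gland factors took a different pattern in each line. Of 33 lung and glandular markers, 7 were tested, of which 3 were called higher in H460 and 3 lower (85.7% called, against 29.3% of all genes). FOXA1, a pioneer factor of endoderm, had 67.8, 67.9 and 68.7 CPM in H460 and 8.92, 9.42 and 8.32 CPM in H2023 (log2 difference 3.11 ± 0.06, adjusted p = 1.52e-10). The progenitor factor SOX9 (45.9 ± 2.2 CPM in H460, 22.5 ± 1.8 CPM in H2023) and the disulfide isomerase of the secretory pathway AGR2 (483 ± 19 CPM in H460, 259.8 ± 9.5 CPM in H2023) were also higher. FOXA2, the paralog of FOXA1, had 2.63, 0.0365 and 0.0354 CPM in H460 and 16.6, 19.1 and 19.4 CPM in H2023 (log2 difference -5.03 ± 0.86, adjusted p = 4.81e-04; -6.24 without H460 library 1). HNF4G, a nuclear receptor of gut and kidney, had 2.57 ± 0.25 CPM in H460 and 27.4 ± 0.53 CPM in H2023 (log2 difference -3.14 ± 0.09, adjusted p = 3.24e-09), and the mucin MUC1 2.15 ± 0.23 CPM in H460 and 5.45 ± 1.1 CPM in H2023 (log2 difference -1.07 ± 0.17, adjusted p = 3.59e-04). MUC1 lay under 2-fold without H460 library 1 (-0.98) or without H2023 library 1 (-0.93). GATA6 differed by -0.99 and was not called, but passed without H460 library 1 (-1.11) or H2023 library 3 (-1.06). With all libraries it also passed under limma-voom (-1.06) and with added constants of 1 (-1.04) or 0.5 (-1.05) in place of 4. A further 13 of these markers had a row in the H2023 table only, among them CEACAM6 at 41.95 CPM and FOXA3 at 9.71 CPM. NKX2-1, the lung lineage factor, had a row in the H460 table only, with 0.600, 0.0365 and 0.0708 CPM. Of 22 neuroendocrine markers 9 were tested, with 66.7% called, against 29.3% of all genes. The 2 higher in H460 were CHGA (15.6 ± 0.83 CPM in H460, 0.984 ± 0.30 CPM in H2023) and SCG2 (3.78 ± 0.54 CPM in H460, 1.04 ± 0.21 CPM in H2023). Lower were 4, namely NCAM1 (10.8 ± 0.61 CPM in H460, 42.4 ± 1.3 CPM in H2023), ENO2 (7.38 ± 0.79 CPM in H460, 28.3 ± 0.46 CPM in H2023), SNAP25 (1.06 ± 0.058 CPM in H460, 3.22 ± 0.70 CPM in H2023) and SYT1 (13.8 ± 0.23 CPM in H460, 33.6 ± 3.2 CPM in H2023). UCHL1 was high in both lines, at 416 ± 18 CPM in H460 and 497 ± 3.3 CPM in H2023, and DLL3 and SYP were not called.

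Epithelial junction genes were mostly lower in H460. Of 20 tested, 2 were called higher and 13 lower (75% called, against 29.3% of all genes). Their median was -1.72 (-1.51 without H460 library 1), against 0.0036 over all genes. CDH1, encoding E-cadherin, had a row in the H2023 table only, at 47.4 CPM, as did the epithelial factor ELF3, at 100.02 CPM. EPCAM, an epithelial adhesion molecule, had 0.938, 0.402 and 0.637 CPM in H460 and 34.99, 37.2 and 36.7 CPM in H2023 (log2 difference -5.31 ± 0.21, adjusted p = 2.01e-08). SPINT2, an inhibitor of the HGF activator, had 0.825, 0.146 and 0.177 CPM in H460 and 297, 311 and 311 CPM in H2023 (log2 difference -9.12 ± 0.36, adjusted p = 2.07e-08; -9.62 without H460 library 1). KRT7, a simple keratin, had 19.7, 1.24 and 1.59 CPM in H460 and 1538, 1600.1 and 1582 CPM in H2023 (log2 difference -8.54 ± 0.83, adjusted p = 9.71e-06; -9.75 without H460 library 1). In the first H460 library both genes were well above the other H460 libraries, and still far below H2023. Others that were lower are the hair keratin KRT81 (9.51 ± 0.080 CPM in H460, 1414 ± 18 CPM in H2023), the epithelial splicing factor ESRP2 (0.409 ± 0.56 CPM in H460, 13.4 ± 1.5 CPM in H2023) and the common simple keratins KRT8 (1202 ± 3.1 CPM in H460, 3225 ± 39 CPM in H2023) and KRT18 (603 ± 5.8 CPM in H460, 2078 ± 16 CPM in H2023). Counter to these, the keratin KRT19 and the tight junction gene CLDN4 were higher in H460, KRT19 with 683, 673 and 704 CPM in H460 and 124, 137 and 136 CPM in H2023 (log2 difference 2.57 ± 0.04, adjusted p = 8.46e-11) and CLDN4 with 29.4 ± 0.50 CPM in H460 and 0.988 ± 0.17 CPM in H2023 (log2 difference 4.85 ± 0.12, adjusted p = 1.25e-09).

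Mesenchymal genes were called in both directions. Of 27 tested, 11 were higher in H460 and 8 lower (70.4% called, against 29.3% of all genes), with a median of 0.31. Without H460 library 1, 9 were lower and the median was 0.42. VIM, the mesenchymal intermediate filament, had 1313, 1344 and 1346 CPM in H460 and 658, 709 and 706 CPM in H2023 (log2 difference 1.15 ± 0.04, adjusted p = 4.04e-09). FN1, fibronectin, had 1497, 1701 and 1642 CPM in H460 and 94.8, 104 and 95.1 CPM in H2023 (log2 difference 4.24 ± 0.05, adjusted p = 2.84e-11), and the collagen COL5A2 992 ± 37 CPM in H460 and 86.7 ± 1.5 CPM in H2023 (log2 difference 3.71 ± 0.03, adjusted p = 6.3e-12). ZEB2, a repressor of E-cadherin, had 24.8, 27.1 and 28.1 CPM in H460 and 0, 0.110 and 0.455 CPM in H2023 (log2 difference 6.49 ± 0.37, adjusted p = 2.28e-07). Lower in H460 were CDH2, N-cadherin, with 2.10, 1.94 and 1.56 CPM in H460 and 35.1, 40.4 and 37.7 CPM in H2023 (log2 difference -4.03 ± 0.12, adjusted p = 3.17e-09), the receptor kinase AXL, with 8.37 ± 1.1 CPM in H460 and 177 ± 8.4 CPM in H2023 (log2 difference -4.18 ± 0.09, adjusted p = 3.38e-10), and the TGF-beta receptor TGFBR2, with 8.85 ± 0.55 CPM in H460 and 114 ± 2.1 CPM in H2023 (log2 difference -3.46 ± 0.06, adjusted p = 8.90e-11). MMP14, a membrane metalloprotease, had 2.74, 0 and 0 CPM in H460 and 9.48, 8.43 and 8.06 CPM in H2023 (log2 difference -4.12 ± 0.94, adjusted p = 0.00279; -5.44 without H460 library 1). CDH11, a mesenchymal cadherin, had a row in the H460 table only, at 597 CPM. Among integrins and laminins, 13 of 18 tested were lower in H460 and 3 higher, with a median of -1.63 (88.9% called, against 29.3% of all genes). ITGA3, which pairs with other chains to bind laminin-332, had 6.98, 5.88 and 5.45 CPM in H460 and 387, 419 and 400.2 CPM in H2023 (log2 difference -5.81 ± 0.08, adjusted p = 4.01e-11). ITGB4, a chain of another receptor of that laminin, had 4.05, 3.98 and 3.29 CPM in H460 and 204, 242 and 223 CPM in H2023 (log2 difference -5.62 ± 0.09, adjusted p = 8.21e-11). LAMA3 (5.56 ± 0.71 CPM in H460, 108 ± 6.0 CPM in H2023), which encodes a chain of that laminin, was lower too. Integrins of other ligands were lower as well, ITGA4 (0.520 ± 0.53 CPM in H460, 7.37 ± 0.78 CPM in H2023) and ITGA7 (0.0472 ± 0.082 CPM in H460, 1.38 ± 0.33 CPM in H2023). ITGB8, which activates TGF-beta, was higher in H460, at 56.7 ± 1.7 CPM in H460 and 10.7 ± 1.4 CPM in H2023 (log2 difference 2.59 ± 0.09, adjusted p = 7.84e-09), and the laminin LAMA1 had a row in the H460 table only, at 276 CPM.

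**Figure D3:**
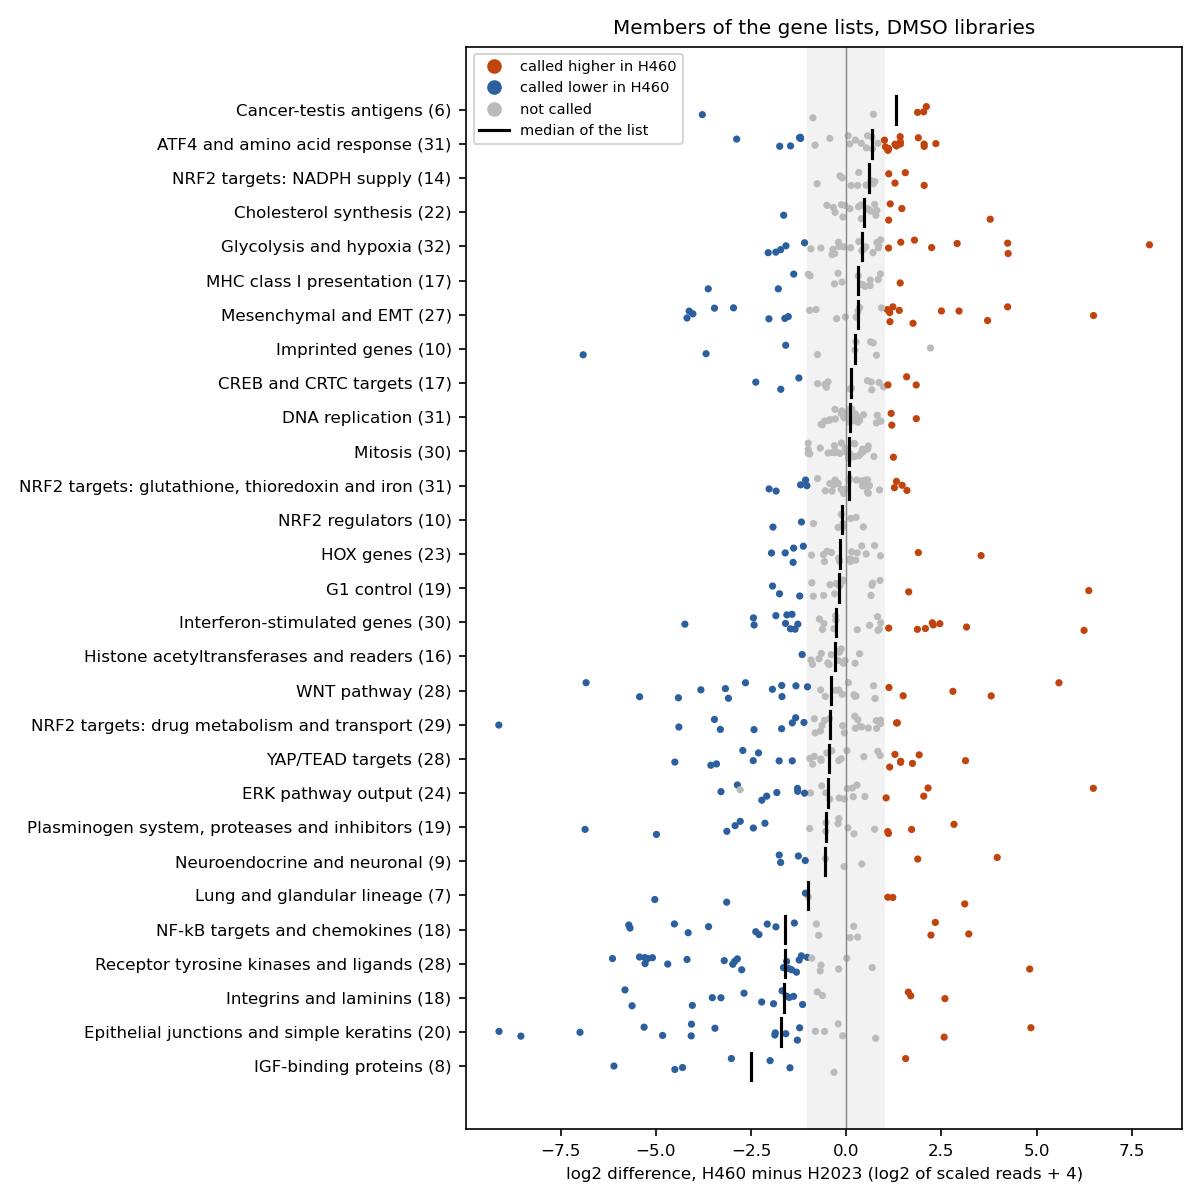
Each point is a tested gene of a list, placed by its log2 difference, H460 minus H2023, and coloured by its call, and the black bar is the median of the list. The grey band marks differences under 2-fold, numbers in brackets are the members tested, and the lists with the lowest medians are those of IGF-binding proteins, epithelial genes, integrins and receptor kinases.

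Growth factor receptors and their ligands were mostly lower in H460. Of 28 receptor tyrosine kinases and ligands tested, 21 were called lower and 1 higher (78.6% called, against 29.3% of all genes), with a median of -1.61. EGFR had 60.6, 63.4 and 62.2 CPM in H460 and 660.4, 676 and 637 CPM in H2023 (log2 difference -3.20 ± 0.03, adjusted p = 9.86e-12). Its ligands were lower as well, TGFA (0.449 ± 0.073 CPM in H460, 30.4 ± 1.8 CPM in H2023), AREG (1.62 ± 0.21 CPM in H460, 79.3 ± 1.2 CPM in H2023) and EREG (0.827 ± 0.14 CPM in H460, 44.3 ± 2.5 CPM in H2023). So were the partner receptor ERBB3 (0.605 ± 0.13 CPM in H460, 30.02 ± 3.5 CPM in H2023) and the receptor of macrophage-stimulating protein MST1R (0.533 ± 0.16 CPM in H460, 55.9 ± 2.9 CPM in H2023), with the ephrin receptor EPHB2 (0.673 ± 0.23 CPM in H460, 34.9 ± 1.6 CPM in H2023). MET, the HGF receptor, had 141, 148 and 149 CPM in H460 and 491, 509 and 486 CPM in H2023 (log2 difference -1.57 ± 0.03, adjusted p = 2.98e-10). HGF itself had a row in the H2023 table only, at 87.02 CPM. The ephrin receptor EPHA3 was the exception that was higher in H460, at 17.4 ± 0.74 CPM in H460 and 0.521 ± 0.075 CPM in H2023 (log2 difference 4.82 ± 0.14, adjusted p = 2.50e-09). Genes that ERK signalling induces were called both ways, 4 higher and 8 lower of 24 (9 lower without H460 library 1). Their median was -0.48, and 50% were called, against 29.3% of all genes. The feedback phosphatase DUSP6 (30.1 ± 1.8 CPM in H460, 8.33 ± 1.2 CPM in H2023) and the ETS factor ETV4 (129 ± 4.6 CPM in H460, 33.3 ± 0.67 CPM in H2023) were higher. The immediate early gene EGR1 (1.72 ± 0.38 CPM in H460, 20.8 ± 1.7 CPM in H2023) and the phosphatase DUSP5 (14.8 ± 1.4 CPM in H460, 72.7 ± 1.1 CPM in H2023) were lower. Ephrin receptors of this list were called both ways, EPHA4 (22.1 ± 0.43 CPM in H460, 0.105 ± 0.14 CPM in H2023) higher and EPHA2 (41.7 ± 1.4 CPM in H460, 348 ± 15 CPM in H2023) lower, and the early response gene IER3 (15.2 ± 0.91 CPM in H460, 81.9 ± 2.2 CPM in H2023) was lower.

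Inflammatory and interferon genes differed gene by gene. Of 18 NF-kB targets tested, 3 were higher in H460 and 10 lower (72.2% called, against 29.3% of all genes), with a median of -1.60. BIRC3, an inhibitor of apoptosis whose promoter is printed above, had 2.40, 2.15 and 2.65 CPM in H460 and 149, 155 and 149 CPM in H2023 (log2 difference -5.68 ± 0.08, adjusted p = 3.56e-11). NFKB2, the precursor of the p52 subunit, had 31.7, 31.6 and 33.05 CPM in H460 and 149, 163 and 156 CPM in H2023 (log2 difference -2.07 ± 0.04, adjusted p = 2.75e-10), and its partner was lower too, RELB (1.26 ± 0.019 CPM in H460, 29.2 ± 3.0 CPM in H2023). So were the adhesion molecule ICAM1 (1.14 ± 0.30 CPM in H460, 77.1 ± 4.6 CPM in H2023) and the cytokines IL18 (1.56 ± 0.59 CPM in H460, 43.6 ± 2.0 CPM in H2023) and CSF1 (10.5 ± 0.98 CPM in H460, 149.9 ± 0.86 CPM in H2023). The neutrophil chemokine CXCL1, with the same letters in its promoter, was higher in H460, with 119, 123 and 122 CPM in H460 and 27.3, 27.5 and 27.4 CPM in H2023 (log2 difference 2.34 ± 0.03, adjusted p = 6.02e-11), and CXCL8 likewise, with 78.6 ± 4.1 CPM in H460 and 9.52 ± 0.68 CPM in H2023 (log2 difference 3.22 ± 0.07, adjusted p = 3.91e-10). IL6 had a row in the H460 table only, at 24.4 CPM. Among 30 interferon-stimulated genes, 8 were higher and 10 lower (60% called, against 29.3% of all genes). IFI16, a DNA sensor, had 56.99, 55.3 and 53.5 CPM in H460 and 0.561, 0.548 and 0.845 CPM in H2023 (log2 difference 6.25 ± 0.14, adjusted p = 6.59e-10), and OAS1, an RNA sensor, 106 ± 3.6 CPM in H460 and 24.9 ± 1.7 CPM in H2023 (log2 difference 2.28 ± 0.05, adjusted p = 7.53e-10). The ubiquitin-like ISG15 (1.55 ± 0.12 CPM in H460, 10.3 ± 0.70 CPM in H2023) and the interferon factor IRF9 (1.29 ± 0.30 CPM in H460, 8.82 ± 1.4 CPM in H2023) were lower, as was the guanylate-binding GBP2 (0.0708 ± 0.12 CPM in H460, 4.80 ± 1.3 CPM in H2023). The neighbours IFI44 (9.55 ± 0.080 CPM in H460, 1.06 ± 0.12 CPM in H2023) and IFI44L (21.1 ± 0.91 CPM in H460, 4.26 ± 0.45 CPM in H2023) were higher. In the MHC class I pathway 1 of 17 genes was higher and 3 were lower (5 under library totals, 4 without H460 library 1). The share called was 23.5%, against 29.3% of all genes. HLA-C, which presents peptides, had 41.6 ± 1.0 CPM in H460 and 165 ± 9.1 CPM in H2023 (log2 difference -1.78 ± 0.04, adjusted p = 8.08e-10). The trimming peptidase ERAP2 had 2.08 ± 0.34 CPM in H460 and 31.5 ± 1.2 CPM in H2023 (log2 difference -3.62 ± 0.12, adjusted p = 4.98e-09). The immunoproteasome subunit PSMB10 (1.41 ± 0.30 CPM in H460, 4.51 ± 0.76 CPM in H2023) was lower too (log2 difference -1.38 ± 0.20, adjusted p = 1.56e-04), but had a difference of 0.92 when transcript rows were added to their genes. The chaperone PDIA3 was higher, at 38.8 ± 2.5 CPM in H460 and 17.2 ± 6.0 CPM in H2023.

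MTAP, the methylthioadenosine phosphorylase that lies beside CDKN2A on chromosome 9 and is often deleted with it, was close to 0 in H2023. It had 87.9, 90.7 and 88.9 CPM in H460 and 1.12, 0.767 and 1.30 CPM in H2023 (log2 difference 6.37 ± 0.15, adjusted p = 7.81e-10). CDKN2A, encoding p16, had a row in neither table, and CDKN2B, its neighbour encoding p15, had one in the H2023 table only, at 6.47 CPM. RB1 had 84.9, 84.6 and 84.7 CPM in H460 and 117, 122 and 111 CPM in H2023 (log2 difference -0.26 ± 0.03, adjusted p = 7.76e-05), a difference under 2-fold. MYC had 333, 338 and 347 CPM in H460 and 192, 193 and 191 CPM in H2023 and passed the 2-fold rule narrowly (log2 difference 1.02 ± 0.03, adjusted p = 1.27e-09; 0.82 by library totals). Of 19 G1 genes tested, 2 were called higher in H460 and 3 lower (5 under library totals), and 14 were not called. The share called was 26.3%, close to the 29.3% of all genes, with a median of -0.19. CDKN1B, the cyclin kinase inhibitor p27, was lower in H460 with 17.03, 14.9 and 16.8 CPM in H460 and 62.5, 65.5 and 61.8 CPM in H2023 (log2 difference -1.75 ± 0.06, adjusted p = 6.28e-09), as were the cyclins CCND3 (log2 difference -1.94 ± 0.03, adjusted p = 9.45e-11) and CCNE1 (log2 difference -1.22 ± 0.06, adjusted p = 1.24e-07). MTAP was 1 of the 2 higher genes. The other was SKP2, which targets p27 for destruction, with 102 ± 5.5 CPM in H460 and 37.6 ± 5.9 CPM in H2023 (log2 difference 1.64 ± 0.10, adjusted p = 3.09e-07).

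Proliferation genes were close to each other in the lines. Of 31 replication genes, 9.68% were called, against 29.3% of all genes, with a median of 0.11. Higher in H460 were 3 (1 by library totals), and none was lower. They were the ribonucleotide reductase subunit RRM2 (285 ± 49 CPM in H460, 97.7 ± 49 CPM in H2023), the polymerase POLA1 (95.9 ± 1.7 CPM in H460, 48.01 ± 4.6 CPM in H2023) and the clamp loader RFC2 (68.3 ± 2.5 CPM in H460, 34.5 ± 1.4 CPM in H2023). Of 30 mitotic genes only the kinase AURKB was called (3.33%). It was higher at 63.5 ± 3.2 CPM in H460 and 30.7 ± 1.5 CPM in H2023 (log2 difference 1.24 ± 0.05, adjusted p = 3.69e-08). Without H460 library 1 a further 2 mitotic genes were called lower. Under library totals 1 was higher and 4 were lower.

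Several genes of sugar uptake and the entry into glycolysis were higher in H460. Of 32 glycolysis and hypoxia genes, 8 were higher and 5 lower, with a median of 0.42. The share called was 40.6%, against 29.3% of all genes. SLC2A3, the glucose transporter GLUT3, had 83.4, 80.1 and 88.1 CPM in H460 and 0.168, 0.602 and 0 CPM in H2023 (log2 difference 7.96 ± 0.41, adjusted p = 1.10e-07). Also higher were the transporter GLUT1, SLC2A1 (127 ± 6.4 CPM in H460, 31.3 ± 8.2 CPM in H2023), the hexokinase HK2 (73.9 ± 3.0 CPM in H460, 4.30 ± 0.68 CPM in H2023) and PDK1 (49.4 ± 1.3 CPM in H460, 2.84 ± 0.51 CPM in H2023), a kinase that inhibits pyruvate dehydrogenase, as well as the aldolase ALDOC (14.8 ± 0.43 CPM in H460, 2.09 ± 0.18 CPM in H2023). The hypoxia genes ADM (4.30 ± 0.18 CPM in H460, 21.1 ± 1.3 CPM in H2023) and CA12 (128 ± 2.9 CPM in H460, 528 ± 8.5 CPM in H2023) were lower in H460. In the ATF4 and amino acid list, 14 of 31 were higher (9 under library totals, 13 without H460 library 1) and 6 lower, with a median of 0.69. There 64.5% were called, against 29.3% of all genes. ASNS, asparagine synthetase, had 119, 117 and 122 CPM in H460 and 27.8, 30.3 and 22.6 CPM in H2023 (log2 difference 2.35 ± 0.09, adjusted p = 1.34e-08). The secreted stress hormone STC2 (49.5 ± 1.4 CPM in H460, 13.6 ± 0.54 CPM in H2023) was higher too. The stress gene NUPR1 (2.12 ± 0.33 CPM in H460, 19.1 ± 1.6 CPM in H2023), the phosphatase of serine synthesis PSPH (12.8 ± 0.68 CPM in H460, 49.6 ± 2.1 CPM in H2023) and the amino acid transporter SLC7A5 (548 ± 20.4 CPM in H460, 1733 ± 36 CPM in H2023) were lower. In cholesterol synthesis 4 of 22 genes were higher (2 under library totals) and 1 lower, or 22.7% called against 29.3% of all genes. STARD4, a sterol carrier, had 129, 137 and 138 CPM in H460 and 12.3, 9.97 and 11.05 CPM in H2023 (log2 difference 3.78 ± 0.07, adjusted p = 2.71e-10). The other higher ones were NSDHL (48.05 ± 1.1 CPM in H460, 19.9 ± 0.79 CPM in H2023), IDI1 (107 ± 1.8 CPM in H460, 54.98 ± 2.2 CPM in H2023) and INSIG1 (66.3 ± 1.8 CPM in H460, 35.1 ± 3.3 CPM in H2023), the last of which retains the sterol sensor. EBP, the sterol isomerase, had a row in the H460 table only, at 88.4 CPM. STK11, the kinase LKB1 that restrains CREB coactivators, had a row in the H460 table only, with 23.04, 22.1 and 24.3 CPM in the 3 libraries. CREB targets were called 3 higher and 3 lower of 17 (35.3%, against 29.3% of all genes). The repressor CREM (54.2 ± 2.7 CPM in H460, 17.3 ± 0.86 CPM in H2023) was higher and the coactivator PPARGC1A (8.42 ± 4.4 CPM in H460, 29.8 ± 2.7 CPM in H2023) lower. The other called members were NR4A3 (30.8 ± 1.8 CPM in H460, 11.7 ± 1.5 CPM in H2023) and PER1 (18.5 ± 0.16 CPM in H460, 9.82 ± 0.34 CPM in H2023), higher, and PTGS2 (4.05 ± 0.62 CPM in H460, 24.9 ± 3.0 CPM in H2023) and INSL4 (4.39 ± 0.31 CPM in H460, 12.2 ± 1.0 CPM in H2023), lower. CPS1, which makes carbamoyl phosphate, was high in both lines, with 832, 897 and 881 CPM in H460 and 1404, 1474 and 1418 CPM in H2023, and was not called (log2 difference -0.52 ± 0.04, adjusted p = 8.71e-07).

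Genes of the IGFBP family of secreted binding proteins and of the IGF2BP family of RNA-binding proteins were mostly lower in H460. Of 8 genes of the IGF-binding families tested, 6 were lower and 1 higher (87.5% called, against 29.3% of all genes), with a median of -2.51. IGFBP4 had 31.2, 33.04 and 32.6 CPM in H460 and 719.7, 734 and 742 CPM in H2023 (log2 difference -4.30 ± 0.03, adjusted p = 3.98e-12). Likewise lower were IGFBP3 (3.93 ± 0.36 CPM in H460, 106 ± 4.3 CPM in H2023), IGFBP6 (9.52 ± 0.41 CPM in H460, 44.3 ± 1.9 CPM in H2023), IGFBP7 (1.73 ± 0.22 CPM in H460, 5.86 ± 0.28 CPM in H2023) and the RNA-binding IGF2BP2 (2.88 ± 1.7 CPM in H460, 25.5 ± 1.5 CPM in H2023). IGF2BP1, which binds IGF2 mRNA, had 11.5, 1.02 and 0.885 CPM in H460 and 191, 203 and 185 CPM in H2023 (log2 difference -6.10 ± 0.76, adjusted p = 5.95e-05; -7.21 without H460 library 1). IGFBP2 was higher, at 26.1 ± 3.2 CPM in H460 and 10.1 ± 1.6 CPM in H2023, and IGF2BP3 was not called. In the WNT pathway 5 of 28 genes were higher and 12 lower (60.7% called, against 29.3% of all genes). The ligand WNT7B had 1.05, 0.949 and 1.03 CPM in H460 and 150.3, 158 and 154 CPM in H2023 (log2 difference -6.83 ± 0.07, adjusted p = 1.10e-11). Feedback inhibitors that WNT signalling induces were lower too, AXIN2 (0.352 ± 0.052 CPM in H460, 12.6 ± 1.3 CPM in H2023) and RNF43 (0.701 ± 0.44 CPM in H460, 38.3 ± 1.2 CPM in H2023), as was the antagonist DKK1 (2.14 ± 0.23 CPM in H460, 37.1 ± 0.48 CPM in H2023). The receptors FZD8 (38.4 ± 0.94 CPM in H460, 0.735 ± 0.19 CPM in H2023) and FZD4 (54.3 ± 2.1 CPM in H460, 4.27 ± 0.11 CPM in H2023) were higher in H460. Of 28 YAP targets 7 were higher and 8 lower (53.6% called, against 29.3% of all genes). The lower ones included ANKRD1 (1.58 ± 0.28 CPM in H460, 23.3 ± 1.2 CPM in H2023), CCN1 (17.5 ± 1.1 CPM in H460, 109.7 ± 3.4 CPM in H2023), the ectonucleotidase NT5E (12.8 ± 1.5 CPM in H460, 158 ± 8.1 CPM in H2023) and the kinase NUAK2 (6.40 ± 0.37 CPM in H460, 49.3 ± 2.3 CPM in H2023). The GTPase-activating protein DLC1 (1.62 ± 0.052 CPM in H460, 0.0433 ± 0.075 CPM in H2023) was higher. Among proteases and inhibitors, 7 of 19 were lower (8 without H460 library 1) and 4 higher (2 under library totals). The share called was 57.9%, against 29.3% of all genes. The metalloprotease inhibitor TIMP3 had 0.638, 0.0730 and 0.106 CPM in H460 and 50.5, 50.5 and 50.5 CPM in H2023 (log2 difference -6.86 ± 0.39, adjusted p = 2.13e-07; -7.37 without H460 library 1), and urokinase, PLAU (2.46 ± 0.27 CPM in H460, 94.9 ± 3.9 CPM in H2023), and TFPI (64.00 ± 1.2 CPM in H460, 507 ± 3.4 CPM in H2023), which blocks tissue factor, were lower as well. So were the cysteine protease CTSV (0.966 ± 0.32 CPM in H460, 10.97 ± 1.0 CPM in H2023) and the elastase inhibitor SLPI (8.24 ± 0.37 CPM in H460, 73.04 ± 7.8 CPM in H2023). SERPINE2, an inhibitor of thrombin and urokinase, was higher, with 436 ± 17 CPM in H460 and 70.2 ± 1.9 CPM in H2023 (log2 difference 2.83 ± 0.04, adjusted p = 3.56e-11).

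HOX genes and imprinted genes were called at 30.4% and 30%, close to the 29.3% of all genes. Of 23 HOX genes tested 2 were higher, HOXB9 (7.95 ± 0.33 CPM in H460, 0.615 ± 0.18 CPM in H2023) and HOXA3 (16.4 ± 1.9 CPM in H460, 4.89 ± 0.33 CPM in H2023), and 5 lower, among them HOXA10 (6.49 ± 0.55 CPM in H460, 23.05 ± 2.4 CPM in H2023), HOXD8 (1.51 ± 0.17 CPM in H460, 4.87 ± 0.55 CPM in H2023), HOXA9 (2.61 ± 0.60 CPM in H460, 8.04 ± 0.94 CPM in H2023) and HOXC10 (1.97 ± 1.5 CPM in H460, 4.44 ± 0.69 CPM in H2023). HOXA9 lay under 2-fold with transcript rows added (-0.66). Without H460 library 1, 6 HOX genes were called lower instead of 5. HOXC10, at -1.13, lost its call without H460 library 2 (-0.72), H460 library 3 (-0.9998), H2023 library 2 (-1.13) or H2023 library 3 (-1.02), with adjusted p of 0.0618 to 0.088. Of 10 imprinted genes tested 3 were lower. They were the neighbours SGCE (0.172 ± 0.12 CPM in H460, 45.6 ± 3.1 CPM in H2023) and PEG10 (31.1 ± 6.1 CPM in H460, 454 ± 19 CPM in H2023) on chromosome 7 and the adaptor GRB10 (11.5 ± 0.94 CPM in H460, 39.9 ± 1.3 CPM in H2023). Of the others, MEST differed by 0.71, PLAGL1 by 0.26, PHLDA2 by -0.76, BLCAP by 0.79, KCNQ1OT1 by 0.23 and MEG8 by 0.64, and none was called. IGF2 was not called with all libraries (log2 difference 2.21 ± 1.96, adjusted p = 0.317), and without H460 library 1 it had a difference of -0.64. SNRPN had a row in the H460 table only, with 128, 129 and 131 CPM. Of 40 cancer-testis genes, 6 were tested and 18 had a row in the H2023 table only, among them MAGEA4 at 155 CPM, GAGE2A at 246 CPM and MAGEA3 at 101 CPM. In H460 MAGEA1 (104 ± 1.8 CPM in H460, 27.8 ± 2.2 CPM in H2023), MAGED1 (139 ± 3.5 CPM in H460, 38.8 ± 1.5 CPM in H2023) and MAGEB2 (78.8 ± 3.4 CPM in H460, 24.5 ± 0.49 CPM in H2023) were higher and MAGEA12 (0.194 ± 0.038 CPM in H460, 5.56 ± 0.26 CPM in H2023) was lower. MAGED2 (0.72) and PRAME (-0.88) were not called. MAGE and GAGE genes have near-identical copies, and the counting may have divided their reads.

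Among the 12 protein-coding genes with the highest differences, HVCN1, a voltage-gated proton channel of blood cells, came first. HVCN1 had 142, 141 and 148 CPM in H460 and 0.224, 0.0548 and 0.130 CPM in H2023 (log2 difference 8.98 ± 0.17, adjusted p = 2.36e-10), on 7 reads over the 3 H2023 libraries. OLFML2A, an extracellular matrix protein, had 380.5, 409 and 401 CPM in H460 and 1.23, 1.75 and 1.49 CPM in H2023 (log2 difference 8.08 ± 0.10, adjusted p = 2.86e-11), and COL8A1, a short-chain collagen, 318, 350.2 and 338 CPM in H460 and 1.51, 1.86 and 1.17 CPM in H2023 (log2 difference 7.83 ± 0.13, adjusted p = 8.90e-11). ACAT2, the cytosolic thiolase that starts sterol synthesis, had 61.4, 61.3 and 60.5 CPM in H460 and 0.224, 0.219 and 0.260 CPM in H2023 (log2 difference 7.35 ± 0.11, adjusted p = 5.94e-11). Only 12 reads lay in ACAT2 over the 3 H2023 libraries, against 5025 over the H460 libraries. TENM3, a neuronal adhesion protein, had 3271 reads in the H460 libraries and 1 read in the H2023 libraries, a ratio of CPM of 2046 whose exact 95% interval for counting error ran between 367 and 80835. The others were DPYSL3 (88.9 ± 2.8 CPM in H460, 0.194 ± 0.081 CPM in H2023), GASK1B (173 ± 3.3 CPM in H460, 0.564 ± 0.052 CPM in H2023), SLC2A3, the histone gene H3C12 (207 ± 6.8 CPM in H460, 1.05 ± 0.24 CPM in H2023), RTN1 (53.2 ± 0.94 CPM in H460, 0.153 ± 0.17 CPM in H2023), SLITRK4 (78.2 ± 1.0 CPM in H460, 0.367 ± 0.062 CPM in H2023) and FERMT3 (88.6 ± 0.97 CPM in H460, 0.510 ± 0.11 CPM in H2023). H3C12 has near-identical paralogs.

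Among the 12 lowest, TGM2, a transglutaminase that crosslinks matrix proteins, had 2.03, 0 and 3.18 CPM in H460 and 679, 705 and 707 CPM in H2023 (log2 difference -9.13 ± 0.91, adjusted p = 1.18e-05; -9.62 without H460 library 1). C3, the central complement component, had 0.450, 0.402 and 0.531 CPM in H460 and 228, 259 and 239 CPM in H2023 (log2 difference -8.38 ± 0.09, adjusted p = 1.52e-11), and VGLL3, a cofactor of TEAD factors, 0.788, 0.183 and 0.425 CPM in H460 and 255, 263 and 237 CPM in H2023 (log2 difference -8.54 ± 0.29, adjusted p = 7.17e-09; -8.88 without H460 library 1). The remaining ones were CYP24A1, SPINT2, KRT7, KRT81 and SGCE, given above, with BICC1 (1.10 ± 0.20 CPM in H460, 213 ± 4.4 CPM in H2023), the carboxypeptidase M gene CPM (0.582 ± 0.079 CPM in H460, 119 ± 6.2 CPM in H2023), MAL2 (1.32 ± 0.20 CPM in H460, 212 ± 3.6 CPM in H2023) and the death-associated kinase DAPK1 (1.01 ± 0.11 CPM in H460, 165 ± 4.4 CPM in H2023). All 24 passed the same rule in the CCS1477-treated libraries, with differences of at least 4.21 in size. Overlapping genes are a limit here, since no source used states whether strand was used in counting. On the opposite strand, HVCN1 overlaps TCTN1, ACAT2 overlaps SOD2 and TCP1, FERMT3 overlaps TRPT1, TGM2 overlaps RPRD1B, the gene CPM overlaps MDM2 and SGCE overlaps CASD1 and PEG10. C3 overlaps GPR108 on its own strand.

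**Figure D4:**
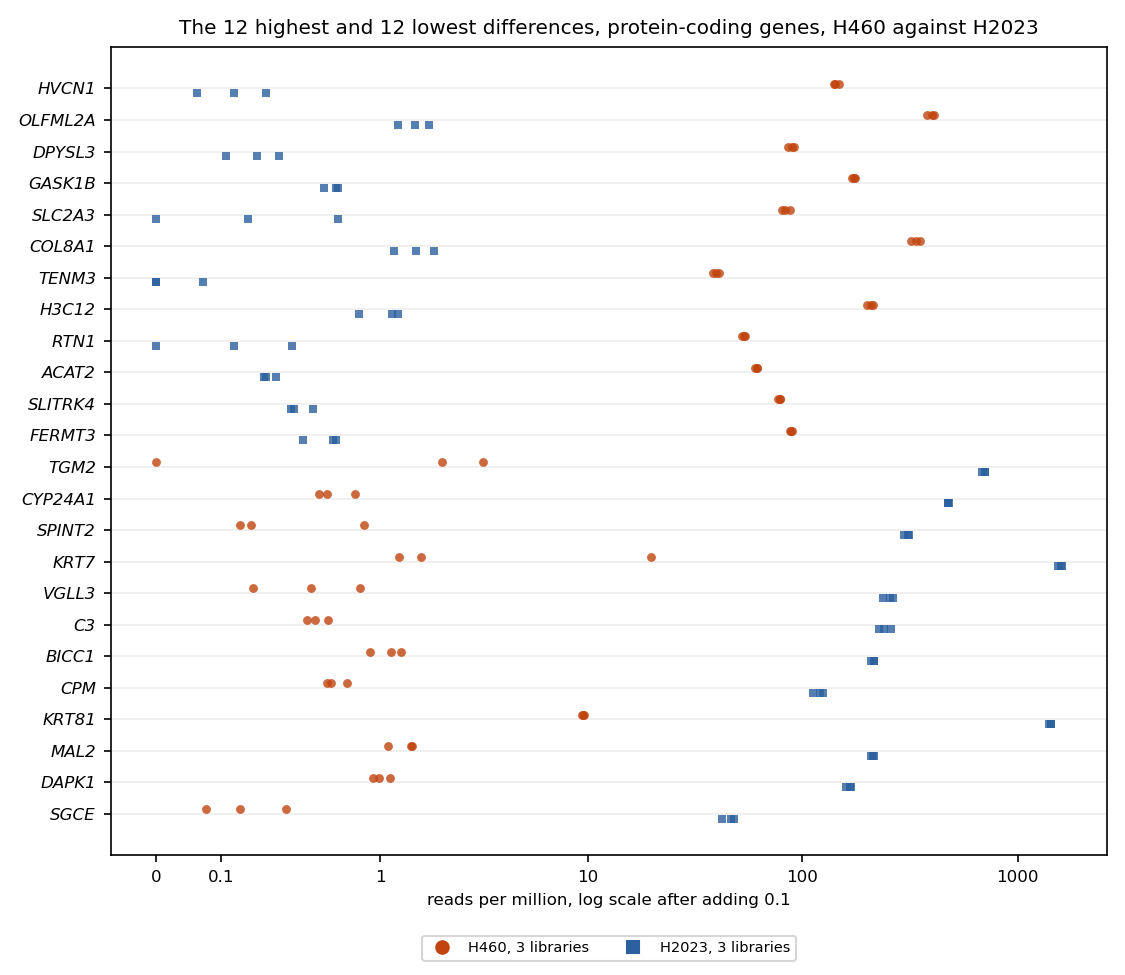
Points are the 3 H460 libraries (circles) and the 3 H2023 libraries (squares) of the 12 protein-coding genes with the highest and the 12 with the lowest log2 differences, in CPM on a log scale after adding 0.1. HVCN1 lies between 141 and 148 CPM in H460 and at 0.224 CPM or less in H2023, and KRT7 in H460 library 1 lies apart from the other H460 libraries.

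Differences were not spread evenly over the chromosomes. Over the 12047 protein-coding genes tested on chromosomes 1 to 22 and X, 12.9% were called higher in H460 and 15.9% lower, with a median of 0.021. On chromosome X, 207 of 411 genes were called higher (50.4%) and 16 lower, with a median of 1.01. On chromosome 8, 129 of 421 were lower (30.6%) and 28 higher, with a median of -0.67. Chromosome 19 had 308 of 859 lower (35.9%) and 30 higher, with a median of -0.65. Chromosome 21 had a median of -0.46, and chromosomes 14, 5, 20 and 15 had medians of 0.53, 0.42, 0.42 and 0.41. In the CCS1477-treated libraries the medians were 0.999 for X, -0.61 for chromosome 8 and -0.63 for chromosome 19. Genes of a chromosome are not replicates, and these values are given without a test. On chromosome 19, 99 of 194 zinc finger genes with a ZNF symbol were lower and 5 higher (median -1.02), as were 209 of the other 665 genes lower and 25 higher (median -0.54). ZNF genes of other chromosomes had 33 lower and 20 higher of 220.

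**Figure D5:**
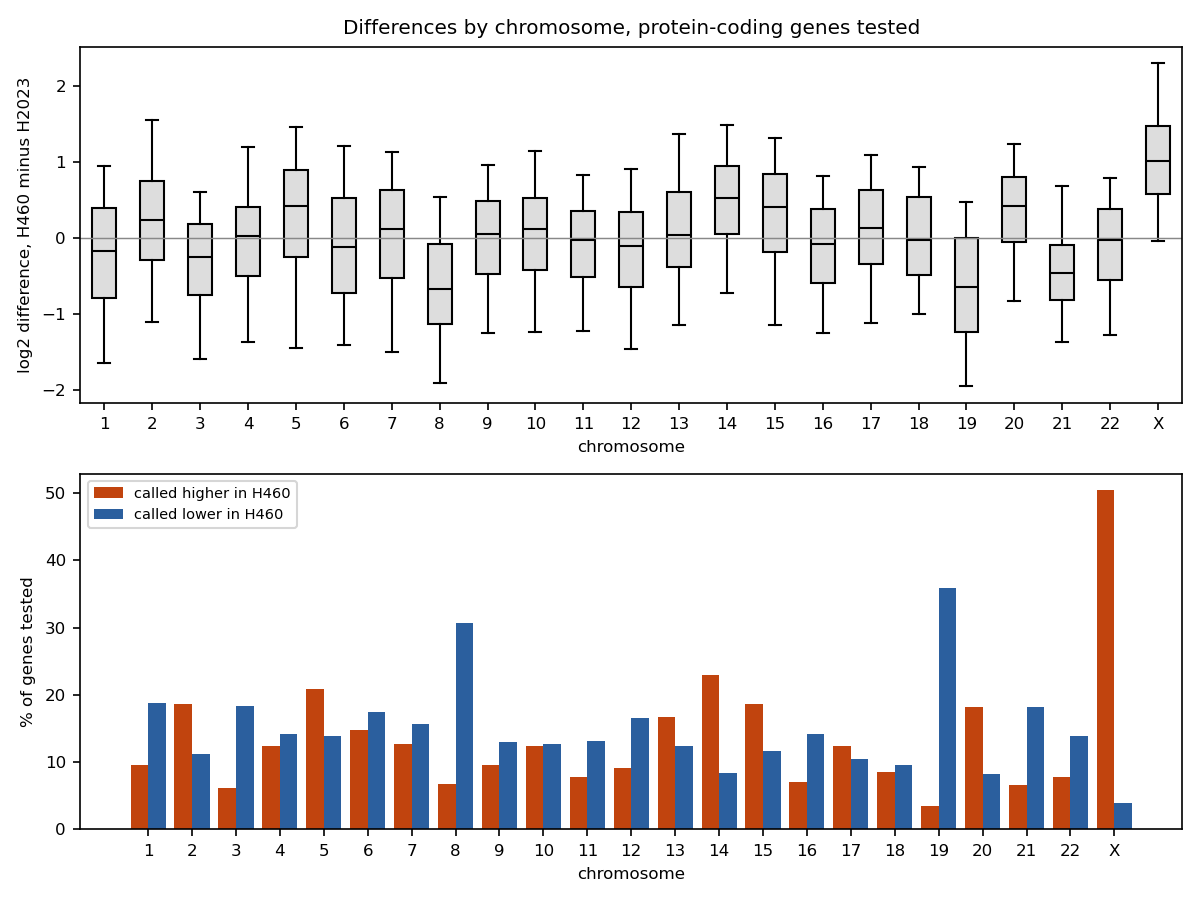
The upper boxes show log2 differences, H460 minus H2023, of protein-coding genes by chromosome (line, median; box, quartiles; whiskers, 10th to 90th percentile). The lower bars give the share of genes called higher and lower, and chromosome X stands out with 50.4% higher, chromosomes 19 and 8 with 35.9% and 30.6% lower.

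Neighbouring genes were also called in the same direction in runs. Positions are on GRCh38. The longest run was on chromosome 19 from 52749942 to 54012669, where 18 tested protein-coding genes in a row were lower in H460: ZNF600, ZNF28, ZNF468, ZNF320, ZNF888, ZNF816, ZNF160, ZNF347, ZNF665, ZNF845, ZNF525, ZNF765, ZNF761, ZNF813, ZNF331, MYADM, CACNG8 and CACNG6. Their differences ran from -5.64 to -1.09 with a median of -1.66, and 17 had the same call in the CCS1477-treated libraries. ZNF331 had 0.938, 0.183 and 0.142 CPM in H460 and 21.98, 23.5 and 21.4 CPM in H2023, and it was above the other H460 libraries in library 1. Without H460 library 1, ZNF665 stood at -0.99, just under 2-fold. A second run on that chromosome, from 43766533 to 44134816, held 11 lower genes, the potassium channel KCNN4 and the zinc finger genes ZNF283, ZNF45, ZNF221, ZNF155, ZNF230, ZNF222, ZNF223, ZNF284, ZNF224 and ZNF225, with a median of -1.19. Of these, ZNF45 (-0.99) and ZNF155 (-0.94) lay under 2-fold without H460 library 1, ZNF45 also without H460 library 2 (-0.997), and ZNF221 without H2023 library 1 (-0.98). On chromosome 2 from 169529749 to 171999859, 15 genes in a row were higher in H460: FASTKD1, PPIG, PHOSPHO2, KLHL23, SSB, METTL5, UBR3, GORASP2, TLK1, METTL8, DCAF17, CYBRD1, DYNC1I2, SLC25A12 and HAT1. Their differences ran from 1.04 to 3.56 with a median of 1.58, and 13 had the same call in the CCS1477-treated libraries. DCAF17 stood at 0.96 without H2023 library 1. HAT1, a histone acetyltransferase, had 75.4, 74.4 and 77.8 CPM in H460 and 36.3, 39.1 and 36.3 CPM in H2023 (log2 difference 1.22 ± 0.04, adjusted p = 6.66e-09).

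On chromosome 12 from 11649854 to 12917937, 11 genes were lower in H460: ETV6, LRP6, MANSC1, BORCS5, DUSP16, CREBL2, GPR19, CDKN1B, APOLD1, DDX47 and GPRC5A, with a median of -1.69. In the CCS1477-treated libraries 4 of them had the same call. ETV6, an ETS repressor, had 8.40, 8.73 and 8.03 CPM in H460 and 39.4, 38.7 and 37.1 CPM in H2023 (log2 difference -1.97 ± 0.06, adjusted p = 4.07e-09), and GPRC5A, a lung-enriched receptor, 112, 118 and 121 CPM in H460 and 526, 566 and 555 CPM in H2023 (log2 difference -2.03 ± 0.04, adjusted p = 2.47e-10). At the tip of chromosome X from 304529 to 2882820, 10 genes were higher in H460: GTPBP6, PPP2R3B, CSF2RA, SLC25A6, ASMTL, AKAP17A, DHRSX, ZBED1, CD99 and GYG2. Their median was 2.52, and all 10 had the same call in the CCS1477-treated libraries, while ASMTL stood at 0.96 without H2023 library 2. CD99, a surface glycoprotein, had 157, 157 and 158 CPM in H460 and 18.8, 21.03 and 20.02 CPM in H2023 (log2 difference 3.16 ± 0.04, adjusted p = 4.56e-11), and SLC25A6, an ADP/ATP carrier, 853, 865 and 865 CPM in H460 and 109, 108 and 111 CPM in H2023 (log2 difference 3.17 ± 0.03, adjusted p = 6.3e-12). Most of these genes lie in the pseudoautosomal region shared by X and Y, and their counts cannot be divided between the chromosomes.

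Genes with a row in one table only could not be compared. There were 956 in the H460 table, 120 of them over 5 CPM, and 2672 in the H2023 table, 233 of them over 5 CPM. Which filter formed the tables is not given in the sources used here, so a missing row gives no level. In H460 the highest protein-coding ones were TBXT, the notochord factor brachyury, with 671, 664 and 696 CPM in the 3 libraries, CDH11, given above, EPB41L3 (371 CPM), LAMA1, the histone genes H2BC9 (222 CPM) and H3C7 (219 CPM), RAB34 (137 CPM), FGF13 (134 CPM), SNRPN and FLRT2 (127 CPM). In H2023 they were GAGE12F (322 CPM), CDH17, a cadherin of gut epithelium (306 CPM), GAGE2A, the fibrinogen chain FGA with 238, 239.7 and 235 CPM in the 3 libraries, GPX2, HAVCR1, a kidney injury marker (165 CPM), TSPYL5 (158 CPM), MAGEA4, NLRP2 (123 CPM) and INA, a neurofilament protein (109 CPM).

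Measures of RNA composition moved with the lines as well. Mitochondrially encoded rows took 1.91 to 2.06% of reads in H460 and 1.54 to 1.81% in H2023. The mitochondrial ribosomal RNA MT-RNR1 had 786, 747 and 531 CPM in H460 and 1.51, 0.438 and 0.585 CPM in H2023 and the ribosomal RNA gene RNA5-8SN2 1125, 750.3 and 514 CPM in H460 and 0.168, 0.164 and 0.0650 CPM in H2023. Both were spread widely over the H460 libraries. Of 38 replication-dependent histone genes tested 18 were higher in H460 and 4 lower (57.9% called, against 29.3% of all genes), with a median of 0.98. Without H460 library 1, 17 were higher. Of 53 ribosomal protein genes 6 were higher and none lower (11.3% called), with a median of 0.48. The part of these in the differences above was not tested. Markers of other cells were mostly low or without a row. Of 16 leukocyte markers 3 had a row in both tables and 2 were tested, with CD14 (2.43 ± 0.30 CPM in H460, 0.635 ± 0.24 CPM in H2023) called higher and CORO1A (1.56 ± 0.18 CPM in H460, 1.36 ± 0.40 CPM in H2023) not called. The 2 tested markers summed to 3.56 to 4.24 CPM in H460 and 1.63 to 2.73 CPM in H2023. In the H2023 table only were PTPRC, the common leukocyte antigen, with 0.224, 1.86 and 1.04 CPM, and the integrin ITGAM, with 2.41, 1.97 and 2.21 CPM. Of 14 fibroblast and endothelial markers COL1A1 was tested and not called, with 7.79 ± 1.0 CPM in H460 and 6.94 ± 0.60 CPM in H2023. The collagen COL3A1 had a row in the H460 table only, with 20.3, 20.7 and 19.6 CPM, as had PDGFRB with 2.42 CPM and LUM with 0.885 CPM, and PECAM1 had one in the H2023 table only, at 0.346 CPM.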

How the data were processed

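Total RNA of DMSO-treated cells was sequenced as 3 H460 and 3 H2023 directional paired-end libraries, per the labels. The authors deposited 1 table of log2 values per cell line, and columns were assigned to a line by their table. For aligner, counter, use of strand in counting and the filter on rows the labels name nothing. Reads map to GRCh38, per the submitters' processing notes. The deposited values are log2 of a count divided by 1 factor per library, plus 4, with factors set within each table. Undoing this gave whole reads within 0.1 for 100% of values under 1000 reads. Transcript rows, 9.19 to 9.63% of reads, were left out. Gene symbols came from an identifier table that matched all 15468 shared gene rows, and positions from GENCODE 29.

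The 6 libraries were rescaled together by median of ratios. Genes that reached 1 CPM in 3 or more libraries were tested on log2(scaled reads + 4) with limma-trend (limma 3.58.1, R 4.3.3; Python and pandas for all other steps), two-sided, with Benjamini-Hochberg adjustment, called at adjusted p under 0.05 and at least 2-fold. An exact permutation test of 3 against 3 libraries cannot go below p = 0.10 and was not used. Count models were not run, since the deposited unit is log2. On simulated data the fit was checked for its recovery of known differences. Named genes were a fixed list, the 12 highest and 12 lowest called differences among protein-coding genes whose lines do not overlap, with at least 5 CPM in the higher line, up to 6 called members of each list, all members of lists with under 16 tested, the 5 longest runs, and the 10 highest rows found in 1 table only. Some genes and a list that the rule names are not reported here. Genes outside that rule, named for background or contrast, were chosen after their values were seen. The comparison, its gene lists and rules were chosen with earlier results of these data known. Intervals are exact (Clopper-Pearson) at 95% and cover counting error alone, because without molecular identifiers several reads can stem from 1 molecule. Alternatives were other scalings, limma-voom, other constants and filters, other call rules, a replicate block, transcript rows, 12 libraries in 1 fit, deposited values as they stand, and each library left out.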

Additional observations from a re-analysis of the deposited data

Results flagged for a closer look

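Among the 4008 genes called in untreated cells, 2 were called in the opposite direction in the CCS1477-treated libraries of the same lines. Both are listed because of these opposite calls. The line difference under DMSO was then set against that under CCS1477 as an interaction, fitted over 12 libraries and 14259 genes with limma. These libraries include those that gave the calls. A gene picked this way has a large interaction by selection, so its size is described and its adjusted p is no separate support. CDH19, a cadherin of nerve sheath cells, had 53.2, 48.5 and 49.9 CPM in H460 and 24.6, 23.4 and 22.03 CPM in H2023 under DMSO. Under CCS1477 it had 6.14, 7.64 and 8.20 CPM in H460 and 21.4, 22.7 and 18.2 CPM in H2023. The line differences were 1.31 under DMSO and -1.32 under CCS1477, and the interaction was 2.642 ± 0.15 (SE, adjusted p = 7.82e-08). ENPP2, the secreted enzyme autotaxin, had 1.35, 1.06 and 1.45 CPM in H460 and 0.617, 0.383 and 0.585 CPM in H2023 under DMSO. Under CCS1477 it had 0.834, 0.984 and 1.62 CPM in H460 and 3.84, 3.93 and 3.15 CPM in H2023. Its line differences were 1.21 under DMSO and -1.42 under CCS1477, and the interaction was 2.646 ± 0.34 (SE, adjusted p = 9.03e-05). ENPP2 rests on 106 reads in H460 and 27 reads in H2023 under DMSO.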

How the results depend on the processing

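With each library left out in turn, the calls ranged from 3955 to 4046, with 1774 to 1810 higher and 2166 to 2236 lower in H460. Other scalings, limma-voom, constants of 1 and 0.5, no filter, a filter of 1 CPM in all 6 libraries, transcript rows added and 12 libraries in 1 fit gave 2885 to 4286 calls, all within 1.5 times the 4008. With the deposited values as they stand, scaled apart per table, 4857 genes were higher and 1052 lower. The p-value alone gave 11079 calls (5565 higher, 5514 lower), and a minimum of 4-fold gave 1323 (555 higher, 768 lower). The replicate number as a block gave 4019 calls. Same-numbered libraries of the lines correlated at 0.0728, 0.0364 and -0.00308 in their deviations, so they shared little. These values cannot tell whether same-numbered libraries were made together.

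Over 297 named genes, 4853 of 4979 values kept direction and call. The sign turned for these. The deposited values as they stand gave BTRC 0.62, CPS1 0.19, CREBBP 0.26, DLL3 0.14, EP300 0.23, GCLM 0.50, IGF2BP3 0.39, KEAP1 0.49, ME1 0.54, NFE2L2 0.58, RB1 0.44, RBX1 0.62, TKT 0.60 and UCHL1 0.65. Library totals gave NFE2L1 -0.081, PGLS -0.071 and TXNRD1 -0.11. Transcript rows added gave PSMB10 0.92, TKT 0.10 and UCHL1 0.20, and of these PSMB10 had been called lower. IGF2 ranged from -0.64 without H460 library 1 to 3.86 without H460 library 2. The cause of these changes was not tested beyond the left-out library or rescaling itself. Calls gained or lost on leaving out a library are given beside the genes above.

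The libraries give 15 to 28 reads at 1 CPM, and the spread between libraries of a line was 3.37 to 6.56 times counting noise.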

Other observations

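Further neighbouring genes shared a direction outside the longest runs. On chromosome 19 from 38941401 to 39428415, 9 genes in a row were lower in H460, from FBXO17 to PLEKHG2, with a median log2 difference of -1.61, and 8 had the same call in the CCS1477-treated libraries. The run holds the kinase PAK4, with 27.9 ± 2.0 CPM in H460 and 131 ± 2.9 CPM in H2023, the elongation factor subunit PAF1, with 41.99 ± 0.46 CPM in H460 and 96.7 ± 2.7 CPM in H2023, and ZFP36, which destabilises AU-rich mRNAs, with 16.1 ± 0.75 CPM in H460 and 92.5 ± 1.6 CPM in H2023. On the same chromosome from 45710629 to 46077118, 9 genes from FBXO46 to IGFL4 were lower, with a median of -1.24, and 7 had the same call with CCS1477. Among them the kinase DMPK had 0.929 ± 0.61 CPM in H460 and 12.3 ± 1.1 CPM in H2023. On chromosome 7 from 55887475 to 64563106, 8 genes were lower, with a median of -1.51, and 7 had the same call with CCS1477. CCT6A, a chaperonin subunit of this run, had 186 ± 3.3 CPM in H460 and 628 ± 6.2 CPM in H2023, and CHCHD2, a mitochondrial protein, had 101 ± 2.3 CPM in H460 and 330.3 ± 3.6 CPM in H2023. On chromosome 5 from 141364232 to 141512979, 9 gamma protocadherin genes were lower, with a median of -2.47, and all 9 had the same call with CCS1477. These protocadherin genes share exons, so the counting could divide or repeat their reads and they are not 9 separate measurements.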
